A study of Mus musculus with 33 samples.

Results

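The windows described here are the 13644 regions, almost all of 10 kb, in which Uhrf1 was enriched over input by ChIP-seq in wild type (WT) E14 mouse embryonic stem cells (mESC). They are every entry of the Uhrf1 list, which the authors made from 1 library, among 318036 regions in all lists of the series. Laid on the mm9 genome, they took up 5.14% of the 265500 windows of the placed chromosomes, or 136 Mb. The series has 33 ChIP-seq samples of histone marks, factors and inputs from WT and Uhrf1 KO cells, from undifferentiated mESC to embryoid bodies (EB), aggregates in which mESC differentiate, at week1, week2 and week3. The undifferentiated WT mESC were grown with leukemia inhibitory factor on gelatin or MEF coated plates. The labels and the paper's ChIP methods give sc98817 as the Uhrf1 antibody, whereas the study's antibody list names a different one. The reason for this difference is not known. The WT EB samples were profiled for H3K4me3 and H3K27me3, each with 1 library per week, so no value below has a replicate. Intervals are 95% Wilson intervals for shares and Newcombe intervals for differences. They cover counting error only and treat neighbouring windows as independent, which they are not. The lists carry no read counts, and sequencing totals were not used here, so no depth is given for a window.

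Uhrf1 is a multi-domain nuclear protein that binds hemi-methylated DNA and methylated lysine 9 of histone H3, and recruits the maintenance DNA methyltransferase Dnmt1 to newly replicated DNA. It is best known from heterochromatin and from the silencing of repeated elements. H3K4me3 is a mark of active or poised promoters, and H3K27me3 is the mark laid down by Polycomb repressive complex 2.

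The labels of the cells were checked by H3K4me3 domains within 2 kb of marker gene starts. In WT mESC, 9 of 10 pluripotency markers had one, with Esrrb the exception, and in EB week1 this was 6 of 10, without Nanog, Esrrb, Dppa5a and Fgf4. It was again 9 of 10 in week2 and week3. Of the 15 lineage markers found in the annotation, 10 had a domain in mESC, 14 in week1, 14 in week2 and 12 in week3. The lists therefore do not separate the stages by these markers at all weeks. Afp, a marker of endoderm, lacked a domain in mESC, week1 and week3, and Myh6, a heart myosin, in mESC, week2 and week3.

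Much of the Uhrf1 list lay in sequence that occurs more than once in the genome, and some of that sequence is shown first. All 32-base words at steps of 100 bp were counted in the mm9 genome on both strands. Words shared by isolated Uhrf1 windows, meaning windows with no listed neighbour, were then sought at every base, leaving out homopolymers and short tandem repeats. The word found in the most isolated windows had 29385 copies. The most common word of the isolated windows without it had 14107 copies. No annotation of repeats was used, so no repeat class is assigned. Each is printed below inside a 300-base stretch of an isolated Uhrf1 window, with the word in capitals (mm9, + strand). Both stretches are intergenic, the first between Xkr4 and Rp1 and the second between Oprk1 and Npbwr1.
first word, chr1:4065856-4066155: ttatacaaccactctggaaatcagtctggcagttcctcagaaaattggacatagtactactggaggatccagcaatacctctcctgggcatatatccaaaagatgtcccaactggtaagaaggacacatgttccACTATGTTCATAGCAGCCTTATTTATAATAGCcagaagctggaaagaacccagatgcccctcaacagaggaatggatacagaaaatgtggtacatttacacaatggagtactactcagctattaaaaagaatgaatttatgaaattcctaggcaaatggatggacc
second word, chr1:5811574-5811873: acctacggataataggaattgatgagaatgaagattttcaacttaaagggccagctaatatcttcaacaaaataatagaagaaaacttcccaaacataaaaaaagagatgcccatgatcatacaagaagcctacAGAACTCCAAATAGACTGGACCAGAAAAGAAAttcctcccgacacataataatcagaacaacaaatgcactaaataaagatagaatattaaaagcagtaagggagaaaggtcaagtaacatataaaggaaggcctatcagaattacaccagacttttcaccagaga

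The first word was present in 3453 of 7681 isolated Uhrf1 windows (45.0%, 43.9 to 46.1), in 24.5% (23.4 to 25.6) of the windows that had a listed neighbour, and in 9.22% (9.11 to 9.34) of the 242293 other windows of the genome with under 50% unknown bases. The second word was in 39.7% (38.6 to 40.8) of isolated windows, 17.6% (16.7 to 18.6) of windows with a neighbour and 3.96% (3.89 to 4.04) of other windows. These words were picked for being common in isolated windows, so a high share there was built into the choice. The intervals do not allow for that choice. Of the 27251 windows that held the first word, 18.02% were in the Uhrf1 list, and of the 13698 that held the second, 29.9%. Both words were in 2069 isolated windows (26.9%) and in 1.42% of other windows. In 1850 isolated windows with 1 copy of each, both lay on the same strand in 96.8%, and the first then lay a median of 4045 bp downstream of the second, with 4044 bp and 4045 bp as the lower and upper quartiles. In other windows with 1 copy of each, 91.7% lay on the same strand, and the median spacing was also 4045 bp. The sequence between the words was not compared.

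Some runs of Uhrf1 windows lay in gene clusters in which a part of the members are nearly identical. The 250 bases upstream of 2 gene pairs, each the closest pair of its group that is not identical, are printed below, read in the direction of the gene, with capitals at the bases that differ within the pair. Vmn1r135 and Vmn1r137 encode type 1 vomeronasal receptors, which detect pheromones, and lay in the longest autosomal run. Rhox2a and Rhox2e encode homeobox proteins of the reproductive tract and lay in runs of 3 and 6 windows on chromosome X. All 4 genes are on the + strand, and no annotated exon overlaps the stretches shown.
Vmn1r135, chr7:22617120-22617369: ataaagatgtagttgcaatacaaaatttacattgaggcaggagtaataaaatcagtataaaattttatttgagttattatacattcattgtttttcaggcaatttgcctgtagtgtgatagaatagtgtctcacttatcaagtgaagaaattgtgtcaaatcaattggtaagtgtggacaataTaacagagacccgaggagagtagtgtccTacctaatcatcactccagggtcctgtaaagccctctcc
Vmn1r137, chr7:22779356-22779605: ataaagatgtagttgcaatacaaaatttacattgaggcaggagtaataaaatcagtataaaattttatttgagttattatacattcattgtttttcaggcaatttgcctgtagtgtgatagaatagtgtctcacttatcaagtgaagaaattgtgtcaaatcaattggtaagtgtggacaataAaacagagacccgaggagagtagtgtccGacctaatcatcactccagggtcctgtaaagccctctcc
Rhox2a, chrX:34784721-34784970: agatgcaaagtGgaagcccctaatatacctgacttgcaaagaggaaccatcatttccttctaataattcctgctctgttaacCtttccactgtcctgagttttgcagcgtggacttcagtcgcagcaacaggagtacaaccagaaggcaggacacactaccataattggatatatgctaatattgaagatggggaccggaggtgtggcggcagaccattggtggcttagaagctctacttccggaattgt
Rhox2e, chrX:34944709-34944958: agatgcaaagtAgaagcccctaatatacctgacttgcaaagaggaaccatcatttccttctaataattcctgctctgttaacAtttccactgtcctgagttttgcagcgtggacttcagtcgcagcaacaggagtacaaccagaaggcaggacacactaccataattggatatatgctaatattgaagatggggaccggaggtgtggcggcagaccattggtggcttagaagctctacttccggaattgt

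Each pair had 2 differences in 250 bases, an identity of 99.2%. Compared base by base without gaps, the upstream stretches of the 11 Vmn1r genes in the longest autosomal run had a median identity of 57.2% over 55 pairs, and 16 pairs were above 95%. Of the 6 pairs among the 4 Rhox2 genes in the list, 3 were above 95% and 1 was identical, with a median of 64.0%. Of the 6 pairs each among the listed Rhox3 and Rhox4 genes, 1 was above 95%, and the medians were 29.4% and 24.2%. The printed pairs are thus the most alike of their groups, apart from the 1 identical Rhox2 pair, and need not be typical. Without gaps, a small insertion or deletion lowers the identity of otherwise alike stretches, so the medians do not show how alike the copies are. The authors kept 1 alignment per read, so for stretches as alike as the printed pairs the copy that a read came from cannot be told apart.

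Of the 13644 windows, 7681 (56.3%) were isolated and 5963 (43.7%) lay in 1347 runs of adjacent windows. The next window along the chromosome was also listed after 33.9% of Uhrf1 windows, and after 29.2% on autosomes, against 5.14% of all windows. There were 9028 runs in all, counting isolated windows as runs of 1, with a mean length of 1.51 windows. The 122 runs of 10 windows or more held 2529 windows (18.5%) and spanned 25.3 Mb. Of these long runs, 33 were on chromosome X, 27 on chromosome 7 and 13 on chromosome 14, and 13 of 19 autosomes had at least 1.

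The share of words with a single copy in the genome fell with run length. It was 48.8% in isolated windows, 31.9% in runs of 2 to 4, 8.10% in runs of 5 to 9, 5.04% in runs of 10 to 19 and 1.25% in runs of 20 or more, against 86.4% in other windows. The repeated words were of different kinds. Words with over 100 copies made up 34.7% of isolated windows and 13.5% of runs of 20 or more, against 6.32% of other windows. Words whose copies all lay within 5 Mb, as in local gene clusters, made up 4.07% of isolated windows and 46.1% of runs of 20 or more, against 1.43% of other windows. In the plot of copy number, isolated windows and long runs differ in which repeated words they hold.

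**Figure D1:**
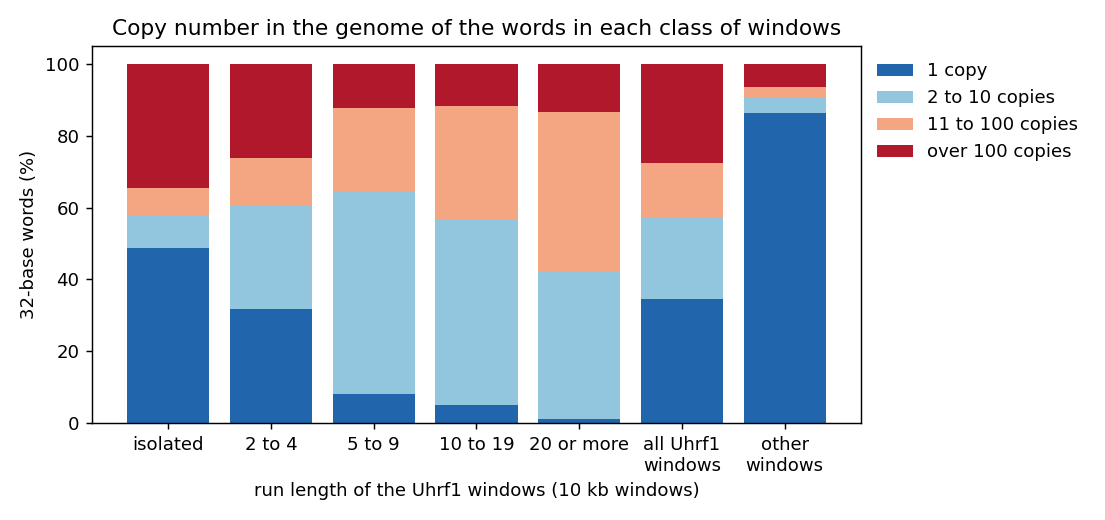
Share (%) of 32-base words by their number of copies in the mm9 genome, for Uhrf1 windows by run length, all Uhrf1 windows and other windows. Single-copy words fall from 48.8% in isolated windows to 1.25% in runs of 20 or more, against 86.4% in other windows.

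Read the other way, 5094 of 7528 windows with under 20% single-copy words were in the Uhrf1 list (67.7%). The share fell to 37.6% of windows with 20 to 40% such words, 16.5% with 40 to 60%, 4.65% with 60 to 80% and 0.747% with 80% or more. The last class held 196301 windows, most of the genome, and 1466 Uhrf1 windows. Whether enrichment at repeated sequence reflects the binding of Uhrf1 or the placement of reads was not tested.

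The longest run was on chromosome X, 127 windows at chrX:27680001-28950000. It touched the protein-coding genes Gm10147 and Gm10096, 1.54% of its words were single-copy and 65.8% had 11 to 100 copies. The longest autosomal run, 112 windows at chr7:22450001-23570000 between Vmn1r132 and Vmn1r158, touched 29 protein-coding genes, of which 11 were Vmn1r receptors (Vmn1r135, Vmn1r137, Vmn1r139, Vmn1r142, Vmn1r143, Vmn1r148, Vmn1r149, Vmn1r151, Vmn1r152, Vmn1r155 and Vmn1r157) and 17 had provisional Gm-numbered names. Single-copy words made up 0.413% of it. The fifth longest autosomal run, 38 windows at chr7:23670001-24050000, held Vmn1r163 and Vmn1r165 from the same receptor cluster, and 1.76% of its words were single-copy.

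The other autosomal runs among the 5 longest covered clusters with few named genes. The run of 50 windows at chr14:6350001-6850000 touched 13 genes and that of 39 windows at chr14:5170001-5560000 touched 8, all Gm-numbered. Their words were 66.4% and 64.2% in the class of 11 to 100 copies. The run of 46 windows at chr5:11410001-11870000 touched 7 genes, 6 of them Gm-numbered and the other 4933402N22Rik. It lay between Speer1-ps1, of a family of testis genes, and Sema3d, a guidance signal for axons. Copies of 76.7% of its words were all within 5 Mb.

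All autosomes held Uhrf1 windows, and the share of a chromosome's windows that was listed ranged from 2.31% on chromosome 11 to 9.32% on chromosome 7, with a median of 3.87%. Chromosome X had 2130 Uhrf1 windows, 12.8% of its windows and 15.6% of the list. The spread came mostly from runs. Among windows with under 50% unknown bases, isolated Uhrf1 windows made up 1.73% (chromosome 11) to 3.44% (chromosome 3) of each autosome and 4.29% of chromosome X, while the share of Uhrf1 windows in runs went from 17.5% on chromosome 19 to 69.3% on chromosome 7. The chromosomes rich in windows were also rich in repeated sequence. Windows with under 20% single-copy words were 7.95% of chromosome 7, 7.24% of chromosome 14 and 11.2% of chromosome X, against a median of 1.13% over autosomes. Among windows with 80% or more single-copy words, the listed share was 0.313% to 1.00% on autosomes and 1.02% on chromosome X. On chromosome Y, 65 windows were listed, 23.7% of its 270 windows with under 50% unknown bases.

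**Figure D2:**
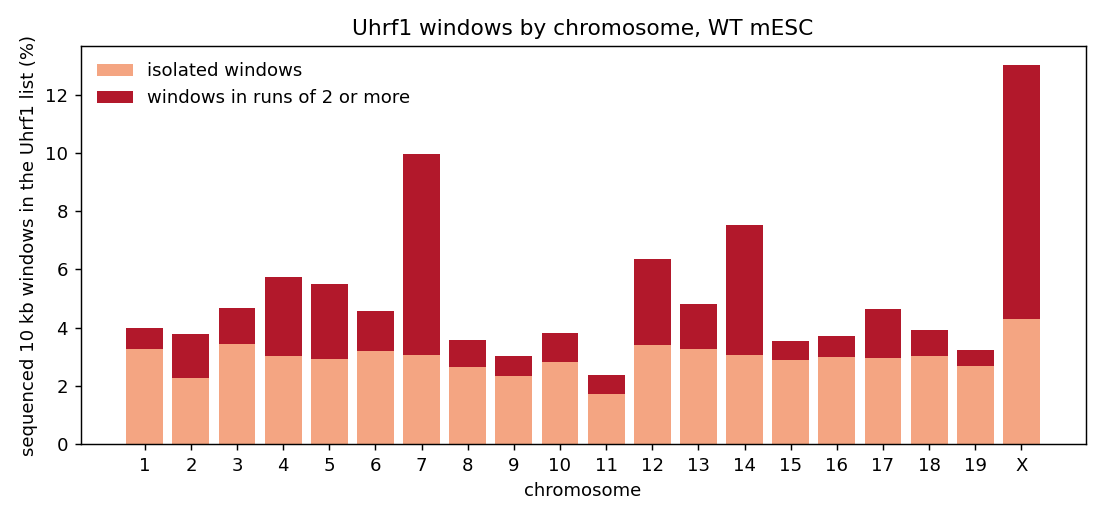
Share (%) of 10 kb windows with under 50% unknown bases that were in the Uhrf1 list, by chromosome, split into isolated windows and windows in runs of 2 or more. Isolated windows vary between 1.73% and 3.44% over autosomes, whereas the part in runs is tallest on chromosomes X, 7 and 14.

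Uhrf1 windows were spread over most of the genome at a coarser scale. Of 2402 autosomal bins of 1 Mb, 361 (15.0%) had none, the median bin had 3 and the highest 95. On chromosome X, 5 of 164 bins had none, the median was 6 and the highest 98. The densest 5% of autosomal bins held 32.5% of autosomal Uhrf1 windows.

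Along the autosomes the windows thinned out with distance from the centromere, which in the mouse lies at the start of each chromosome. Each autosome was cut into 10 parts of equal size. In the first part 8.67% (8.32 to 9.04) of windows were listed, in the fifth 4.12% (3.88 to 4.38) and in the ninth 2.71% (2.51 to 2.92), and in the last part the share was 3.54% (3.31 to 3.78). The share was higher in parts 1 to 5 than in parts 6 to 10 on 16 of 19 autosomes, all but 2, 13 and 16. Isolated windows alone fell from 4.12% in the first part to 1.94% in the last. Single-copy words rose from 77.8% to 87.3% between the same parts, and their part in the trend was not tested.

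Gene deserts, here stretches of at least 500 kb without a protein-coding gene, held 4425 of 13580 Uhrf1 windows with under 50% unknown bases (32.6%, 31.8 to 33.4) against 28.3% (28.1 to 28.5) of other windows, a difference of 4.28 percentage points (3.48 to 5.09). The share was higher than that of other windows on 17 of 19 autosomes. Runs and isolated windows parted here. Isolated windows lay in deserts in 42.1% (41.0 to 43.2), whereas windows in runs of 10 or more did so in 13.1% (11.9 to 14.5). Among windows with 80% or more single-copy words, 43.2% (40.7 to 45.8) of Uhrf1 windows and 25.4% (25.2 to 25.6) of other windows were in deserts. On chromosome X the order was turned, with 24.7% (22.9 to 26.6) of Uhrf1 windows and 34.3% (33.5 to 35.1) of other windows. The nearest protein-coding gene start was a median of 119 kb from isolated windows, 31.7 kb from windows in runs of 10 or more and 68.0 kb from other windows.

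Of 654 deserts, 620 held at least 1 Uhrf1 window, and the median desert had 5.03% of its windows listed, with quartiles of 2.97% and 7.23%. Only 14 deserts had over 20%. The 5 with the most Uhrf1 windows were 0.538 to 1.54 Mb long, against a median of 0.877 Mb over all deserts, and 41.9% to 96.6% of their windows were listed. The desert between Gm10096 and Gm10488 (chrX:28258942-29130552) had 84 of 87 windows listed, and overlapped the end of the longest run. A pair of neighbouring deserts on chromosome 12, chr12:23378189-24463776 and chr12:21834748-23377852, had 74 of 108 and 65 of 155. The desert at chr4:121294709-122366517 had 50 of 108, and that at chrX:51942197-52480052, next to Slxl1, 44 of 54. At least 26 windows of each lay in runs of 10 or more.

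Uhrf1 windows held 838 of 22367 protein-coding gene starts (3.75%). Of these, 230 (27.4%) lay in isolated windows and 264 (31.5%) in runs of 10 or more, and 190 of these 264 genes were Gm-numbered. Over all genes, 459 of 2031 Gm-numbered genes (22.6%, 20.8 to 24.5) and 379 of 20336 others (1.86%, 1.69 to 2.06) started in a Uhrf1 window. Gene bodies were touched more often, 2200 of 22367 (9.84%). None of 14 genes for Uhrf1 and its known partners, among them Dnmt1, Trim28, Ehmt2, Setd1a and Ezh2, had a start or any part of its body in a Uhrf1 window, which allows a share of up to 21.4%.

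By gene family, the shares were highest in clusters of pheromone and reproductive genes. Of the major urinary proteins, lipocalins that carry pheromones, 12 of 21 starts were in a window (57.1%, 36.5 to 75.5). These were Mup1, Mup2, Mup7, Mup8, Mup9, Mup10, Mup12, Mup13, Mup14, Mup15, Mup19 and Mup20. Of the Rhox genes it was 12 of 30 (40%, 24.6 to 57.7), all of the Rhox2, Rhox3 and Rhox4 groups. Of the Xlr, Slx and Ssxb genes of chromosome X, expressed in the germ line, it was 6 of 22, and of the Mage genes 4 of 22, namely Magea1, Magea2, Magea5 and Magea6. All these families had intervals above the 3.75% of all genes, and so also above the 1.86% of genes without a Gm number. Single-copy words averaged 22.8% in the start windows of major urinary proteins and 31.5% in those of Rhox genes. They averaged 33.1% for Xlr, Slx and Ssxb genes and 59.0% for Mage genes, against 86.6% for all genes. Over the genome, 67.7% of windows with under 20% such words were listed, and 37.6% of those with 20 to 40%. How far repeated sequence accounts for the shares of these families was not tested.

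The chemoreceptors differed among themselves. Vomeronasal receptors had 77 of 328 starts in a window (23.5%, 19.2 to 28.4), 36 of them in runs of 10 or more. Olfactory receptors, a larger family of clustered genes, had 36 of 1113 (3.23%, 2.35 to 4.45), near the 3.75% of all genes, and 27 of these were in isolated windows. The olfactory interval lay above the 1.86% of genes without a Gm number. Taste receptors had 1 of 38 and trace amine receptors 0 of 15, which allows up to 20%. The start windows of vomeronasal receptors averaged 55.5% single-copy words and those of olfactory receptors 82.4%. Of the 102 vomeronasal receptors whose start window had 80% or more single-copy words, 0 were in the list, which allows up to 2.94%, as against 9 of 773 olfactory receptors (1.16%) and 53 of 18994 of all genes (0.279%).

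Defensins, antimicrobial peptides, had 9 of 53 starts in a window (17.0%, 9.20 to 29.2), and lectin-like receptors of natural killer cells 3 of 28 (10.7%, 3.71 to 27.2), namely Klrc2, Klrc3 and Klra8. The Speer genes had 2 of 9 and Tdpoz genes 1 of 4. The intervals of the following families held the 3.75% of all genes. Zinc finger genes of the C2H2 class had 11 of 371, ribosomal proteins 3 of 144, cytochrome P450 genes 3 of 98, replication histones 3 of 67, serpins 4 of 60, and placental prolactins 2 of 25. A single start each was listed among 40 Hox genes (Hoxd13), 24 clustered protocadherins (Pcdhb5), 96 potassium channels (Kcnb2), 46 keratin-associated proteins (Krtap5-2), 36 MHC genes (H2-Q6), 17 sulfotransferases (Sult2a4) and 15 Ceacam genes (Ceacam14). Hoxd13 patterns the digits, and its window was made of 97% single-copy words.

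Solute carriers, transporters of the cell membrane, had the lowest share above 0 among families of 10 or more, 2 of 370 (0.541%, 0.148 to 1.95), with Slc7a12 and Slc22a28. That interval lay below the 3.75% of all genes but held the 1.86% of genes without a Gm number. No start was listed among 51 keratins, 43 forkhead genes, 23 cadherins, 22 ionotropic glutamate receptors and 21 UDP glucuronosyltransferases. The same held for 19 Sox genes, 19 Wnt genes, 13 genes with the Cntn prefix (contactins and Cntnap genes), 13 pregnancy glycoproteins and 4 secretoglobins. The limit that a count of 0 allows was 5.88% for keratins and 6.98% for forkhead genes, and 13.0% or more for the others. The start windows of these families averaged 93.4% (keratins) to 97.6% (Sox genes) single-copy words, except 75.9% for UDP glucuronosyltransferases and 63.8% for pregnancy glycoproteins. The genes with the Cntn prefix, contactins and Cntnap genes such as Cntnap2, had a Uhrf1 window over 8 of 13 bodies (61.5%). The glutamate receptors had one over 7 of 22 (31.8%), against 9.84% of all genes. Longer bodies span more windows and so are touched more readily, and gene length was not taken into account. Cntnap2 alone spans 225 windows.

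**Figure D3:**
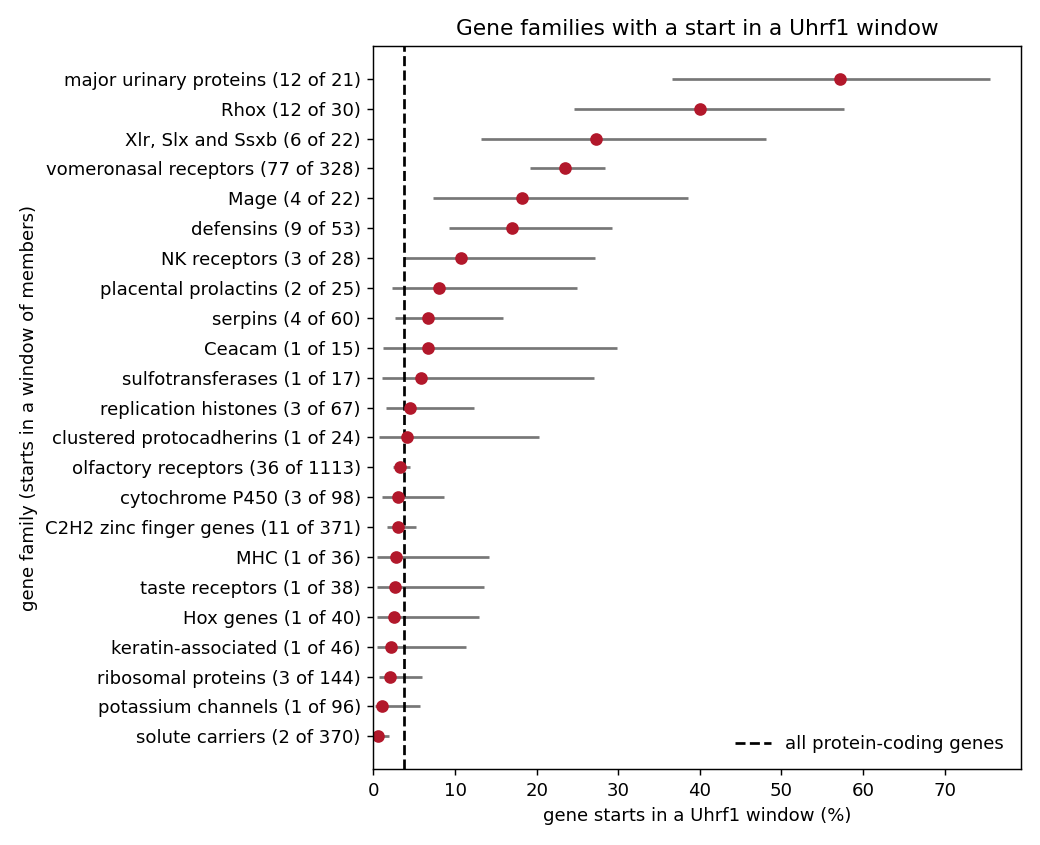
Share (%) of gene starts in a Uhrf1 window for each gene family with 10 or more members and at least 1 such start, with 95% Wilson intervals. Major urinary proteins (57.1%), Rhox (40%) and vomeronasal receptors (23.5%) lie right of the dashed line at 3.75% of all protein-coding genes, and olfactory receptors lie close to it.

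The 10 genes with the most Uhrf1 windows over their bodies were of 2 kinds. Gm3002, Gm3358, Gm3383, Gm7995, Gm3739 and Gm3696 on chromosome 14 and Gm15093 and Gm16430 on chromosome X had 16 to 23 windows each, between 59.4% and 100% of their body, with at most 5.36% single-copy words. Dmd, the gene of dystrophin, had 17 of 227 windows (7.49%) at chrX:80194209-82451480. Cntnap2, which encodes a neuronal adhesion protein, had 16 of 225 (7.11%) at chr6:45010060-47251368. Their words were 85.3% and 84.5% single-copy, and 12 of the 17 windows in Dmd and 6 of the 16 in Cntnap2 were isolated. The listed share of Dmd was below the 12.8% of chromosome X, where 67.1% of Uhrf1 windows lay in runs. It was above the share of X windows with 60 to 80% single-copy words (3.52%) and with 80% or more (1.02%).

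Base composition differed little. Uhrf1 windows had 40.5% GC against 41.8% in other windows, and were lower on 17 of 19 autosomes, with a mean difference of -1.31 percentage points ± 0.841 (SD over 19 autosomes, which share the library). CpG dinucleotides numbered 7.83 per kb in Uhrf1 windows and 8.37 in other windows. Runs of 10 or more had 6.49 and isolated windows 8.39, and the figure was lower than in other windows on 13 of 19 autosomes. Among windows with 80% or more single-copy words the gap was wider and was found in isolated windows too, with 6.34 per kb in isolated Uhrf1 windows, 5.25 in those with a neighbour and 8.65 in other windows. On chromosome X both measures went the other way, with 6.93 CpG per kb in Uhrf1 windows and 5.77 in other windows, and 39.7% and 39.2% GC.

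Uhrf1 windows of mESC were then laid against the marks of WT EB. The 6 domain lists differ in reach. The H3K27me3 domains covered 101 Mb in week1, 1165 Mb in week2 and 791 Mb in week3, and the H3K4me3 domains 107 Mb, 206 Mb and 162 Mb. The weeks are therefore given side by side, each against its own background. All 6 comparisons share the same Uhrf1 list.

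Uhrf1 windows were poor in EB H3K4me3 at every week. In week1, 335 of 13644 Uhrf1 windows overlapped a domain (2.46%) against 11.2% of other windows, a difference of -8.76 percentage points (-9.04 to -8.46). In week2 the shares were 5.22% and 22.0% (-16.8, from -17.2 to -16.4), and in week3 3.86% and 16.2% (-12.3, from -12.7 to -12.0). The share was lower on 19 of 19 autosomes at each week. Over the 3 weeks, 895 Uhrf1 windows (6.56%) had H3K4me3 at least once and 248 (1.82%) at all weeks, against 24.7% and 9.93% of other windows. Isolated windows had 2.28% in week1, 6.07% in week2 and 3.66% in week3, and windows in runs of 10 or more 1.94%, 2.41% and 2.14%. The difference was smaller, between -4.55 and -3.00 points, when it was taken within 5 classes of single-copy words and averaged by the number of Uhrf1 windows.

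H3K27me3 in EB split the list by run length. In week1, when the mark was called over little of the genome, 2.66% of Uhrf1 windows and 6.66% of other windows overlapped a domain (difference -4.00, from -4.27 to -3.70). In week2 it was 46.7% against 47.4% (-0.684, from -1.54 to 0.178), an interval that holds 0. In week3 it was 26.8% against 35.0% (-8.14, from -8.90 to -7.36). Isolated Uhrf1 windows overlapped more often than other windows in week2, with 65.2% (64.1 to 66.2) and a difference of 17.8 points (16.7 to 18.9), and slightly more often in week3, with 36.7% (35.6 to 37.8) and a difference of 1.69 (0.602 to 2.79). For isolated windows the week2 share was higher on 19 of 19 autosomes and the week3 share on 15. Deserts carried the week2 mark more often, 77.5% of other windows inside deserts and 35.5% outside. Inside deserts week2 H3K27me3 was found in 71.9% of all Uhrf1 windows and 80.4% (79.0 to 81.7) of isolated ones, and outside in 34.6% and 54.1% (52.7 to 55.6). In week3 isolated windows were below other windows inside deserts, 34.3% (32.7 to 36.0) against 38.6%, and above them outside, 38.4% (36.9 to 39.8) against 33.5%. Windows in runs of 10 or more overlapped the mark in 1.74% (1.30 to 2.33) in week2 and 1.78% (1.33 to 2.37) in week3.

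**Figure D4:**
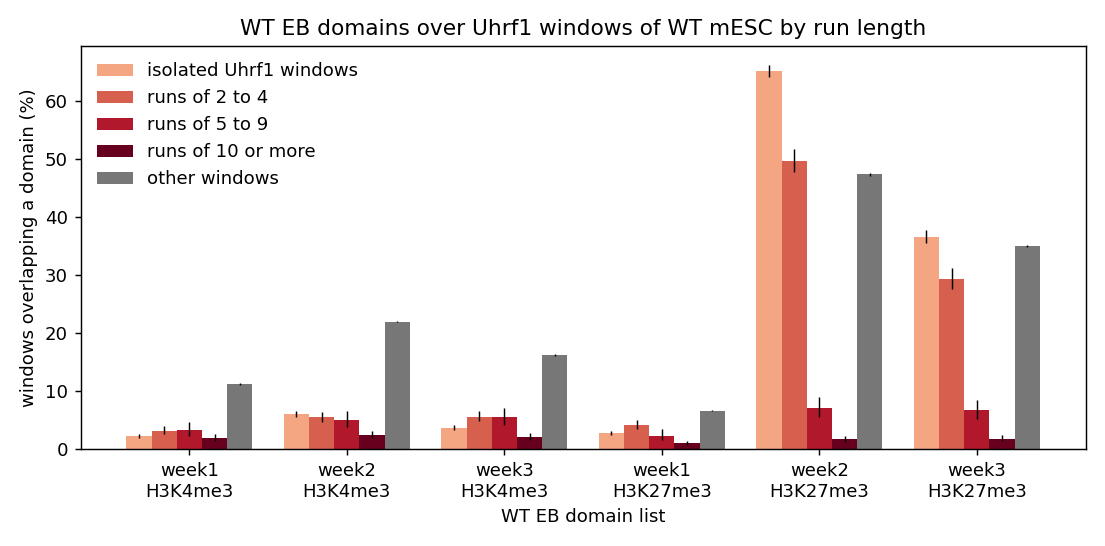
Share (%) of windows that overlapped a WT EB domain, by list, for Uhrf1 windows in 4 classes of run length and for other windows. Error bars are 95% Wilson intervals. H3K27me3 in week2 falls from 65.2% of isolated windows to 1.74% of windows in runs of 10 or more, against 47.4% of other windows. H3K4me3 is low in all Uhrf1 classes.

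The sequence of the windows moved with these shares. Among windows with 80% or more single-copy words, week2 H3K27me3 was found in 62.9% (60.4 to 65.3) of Uhrf1 windows and 43.4% of other windows, and week3 H3K27me3 in 35.4% (32.9 to 37.8) and 34.5%. In the class with under 20% single-copy words the differences between Uhrf1 windows and other windows were -8.64 points in week2 and -4.92 in week3, but isolated Uhrf1 windows of that class were above other windows, with 43.0% (39.7 to 46.4) against 19.1% in week2 and 25.3% (22.4 to 28.3) against 11.8% in week3. Among windows that held the first repeated word printed above, isolated Uhrf1 windows and other windows were close for week2 H3K27me3, at 70.7% and 69.0% (difference 1.74, from 0.0865 to 3.36), and for week3 at 37.6% and 39.0% (-1.40, from -3.12 to 0.352). In those windows H3K4me3 stayed lower in isolated Uhrf1 windows, by -1.50 points (-1.84 to -1.07) in week1, -3.23 (-3.91 to -2.47) in week2 and -2.44 (-2.91 to -1.88) in week3. Whether the lack of domains in long runs reflects chromatin or the placement of reads was not tested.

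Chromosome X carried few H3K27me3 domains in EB in or out of the Uhrf1 list. In week2, 4.93% of Uhrf1 windows and 9.37% of other windows on X overlapped one, and in week3 0.798% and 0.801%. Over all autosomes together, Uhrf1 windows were above other windows in week2, by 4.96 points, and below them in week3, with 31.8% against 37.1%. Chromosome by chromosome, the share of Uhrf1 windows was higher on 16 of 19 autosomes in week2 and on 12 of 19 in week3. Chromosome 14, rich in runs, had the lowest difference at both weeks, -20.0 and -20.2 points.

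Shifting the whole list along each chromosome gave a second background that keeps the runs and the chromosome of each window. Averaged over every possible circular shift, the windows would overlap H3K4me3 in 9.49% in week1, 18.4% in week2 and 13.6% in week3, against the 2.46%, 5.22% and 3.86% seen in place. For H3K27me3 the averages were 5.23%, 41.0% and 29.1%, against 2.66%, 46.7% and 26.8% in place. In week2 the windows thus overlapped H3K27me3 more often than their average shift, although they were level with other windows. The lack of H3K4me3 was deepest at the windows themselves and reached far beyond them. In week2 it was 5.22% with no shift, 7.40% at 10 kb, 10.7% at 100 kb, 15.7% at 1000 kb and 18.4% at 10000 kb. For week2 H3K27me3 the share was flat, 46.7% in place and 47.5% at 50 kb, and fell to 41.9% at 1000 kb. The near neighbourhood of the windows thus carried the mark as often as the windows did. The median week2 H3K27me3 domain was 64.8 kb long, so a window shifted by up to 50 kb can stay inside the same domain. The share also pools isolated windows and runs, which differed in this mark.

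**Figure D5:**
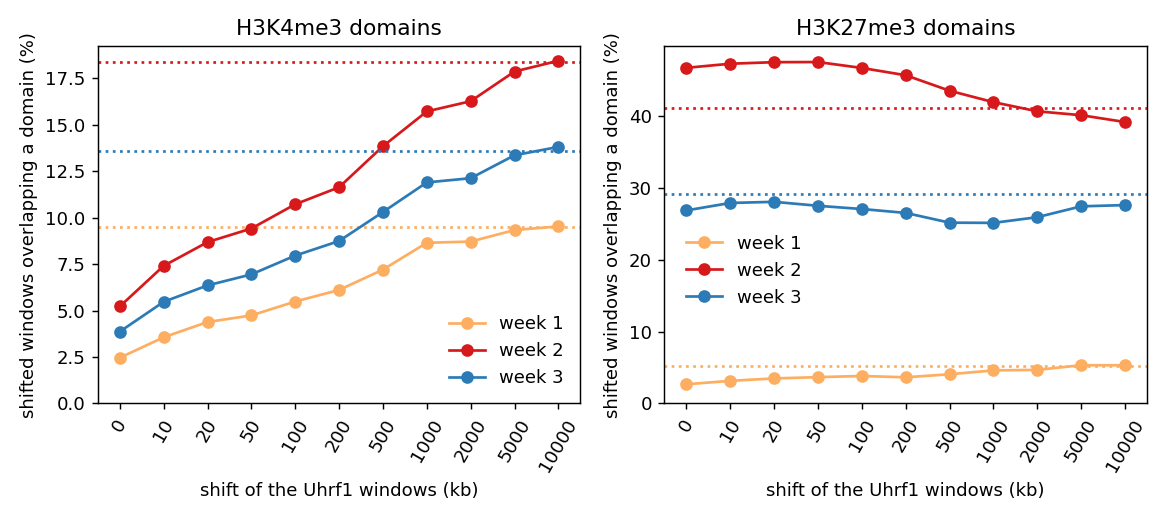
Share (%) of Uhrf1 windows that overlapped a WT EB domain after the list was shifted by the distance on the x axis (kb, not to scale, mean of both directions), by week. Dotted lines are the means over all circular shifts. H3K4me3 in week2 climbs from 5.22% in place to 18.4% at 10000 kb, whereas H3K27me3 in week2 starts at 46.7% and stays near it up to 100 kb.

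Taking both marks and all weeks, 6333 Uhrf1 windows (46.4%) had no EB domain of any kind, against 26.99% of other windows. It was 25.7% of isolated windows and 44.6% of windows in runs of 2 to 4. In runs of 5 to 9 it was 87.3% of windows, and in runs of 10 or more 96.4%. Among the 122 runs of 10 or more, 93 had no EB domain in any window, including the longest on chromosome X and the longest on an autosome. H3K27me3 was found at all 3 weeks in 295 Uhrf1 windows (2.16%) and 4.11% of other windows. Both marks together in week3 were found in 249 (1.82%) and 4.76%.

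At the other end, 294 of 1347 runs of 2 or more windows had week3 H3K27me3 in every window. Among single other windows, 35.0% overlapped a week3 H3K27me3 domain, and the median domain was 46.8 kb long. That share is not a background for whole runs. Stretches of other windows of the same length were not compared, so the count cannot be read as high or low. The longest of these runs had 5 windows each, and both were on chromosome 6. The run at chr6:130510001-130560000 lay between Klra1, a receptor of natural killer cells, and Gm5581. The run at chr6:132160001-132210000 touched Prb1, a proline-rich protein of saliva, and lay between Gm4736 and Prpmp5. Their words were 31.8% and 48.0% single-copy, both more than in the long runs.

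Gene starts in Uhrf1 windows mostly lacked EB marks. In week3, 643 of 838 (76.7%, 73.8 to 79.5) had no domain of H3K4me3 or H3K27me3 within 2 kb, against 18.7% of starts outside the list. H3K4me3 alone was found at 5.25% against 50.9%, both marks at 4.42% against 17.6%, and H3K27me3 alone at 13.6% against 12.9%. Starts in isolated windows had H3K27me3 alone in 31.7% (26.1 to 38.0), and 47.0% had neither. Of the 264 starts in runs of 10 or more, 261 (98.9%) had neither. In week2 neither mark was found at 72.6% of starts in the list and 16.5% of those outside, and in week1 at 90.2% and 31.4%.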

How the data were processed

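ChIP-seq lists were used for 8 of 33 samples: Uhrf1 and H3K4me3 in WT mESC, and H3K4me3 and H3K27me3 in WT EB at weeks 1, 2 and 3. Per the submitters' processing notes the authors mapped reads to mm9 with Bowtie2 2.1.0, and per the paper's methods they kept 1 alignment per read. The deposited Uhrf1 list gives window positions with no score, and its start column counts from 1. The authors made it from 10 kb windows that passed their fold and adjusted Poisson p thresholds over input. They called histone domains with RSEG against input, and deposited 2 values for each domain, a signal (reads per bin, averaged) and a score. The score was used only in 1 alternative, and the signal not at all. The positions, of unit other, carry no depth.

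Windows were placed on the mm9 (NCBIM37) assembly with the GENCODE annotation of that build. A window overlapped a domain at 1 shared bp. "Other windows" are those not listed with under 50% unknown bases. Words of 32 bases at steps of 100 bp were counted over 21 chromosomes. Circular shifts were averaged over every shift, with no random draws. With 1 library per group no p-value is given. The named runs, genes, deserts and families follow fixed rules: the 5 longest autosomal runs and the longest on X, the 10 genes and the 5 deserts with the most windows, and all listed families. Families were taken by the start of the gene symbol, which can include related genes. Families, rules and members were chosen with earlier results of these data known. Calculations used Python 3.11.15, numpy 2.4.6, pandas 2.3.3 and numba 0.67.0, and plots matplotlib 3.10.9. The functions for overlaps, runs and word counts were checked on simulated intervals and by direct search. Alternatives were other run, desert and overlap definitions, autosomes only, and, added after seeing the data, 3 that take account of single-copy words or runs. Other lists and the inputs were not used here.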

Additional observations from a re-analysis of the deposited data

How the results depend on the processing

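With 1 library per group no value has a replicate, no paired analysis was possible because no replicate exists, and the lists carry no depth. Of 77 alternative values, 16 stayed within the interval or spread of the value given in the report, 54 moved outside it without a change of direction and 7 changed sign. Many alternatives change which windows, genes or domains are counted, so a move was built into them. Other causes were not tested.

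Runs held 51.4% of Uhrf1 windows when joined across 1 unlisted window, 39.1% on autosomes and 11.4% among windows with 80% or more single-copy words. With that limit on words, which was added after seeing the data, chromosome X held 6.14% of the list, the lowest and highest autosomal shares were 0.313% and 1.00%, gene deserts held 43.2%, gene starts in the list were 0.279%, of olfactory receptors 1.16% and of vomeronasal receptors 0, and the differences in GC and CpG were -2.39 percentage points and -2.44 per kb. Without windows of mostly unknown bases the highest autosomal share was 9.95%.

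Deserts held 20.1% of Uhrf1 windows at a minimum of 1 Mb, 15.4% when all annotated genes bounded them and 34.1% on autosomes. The difference from other windows was then 2.23, 0.808 and 6.12 points, and 17.9 with mostly single-copy words. Uhrf1 windows touched 9.84% of gene bodies and 31.7% of those of vomeronasal receptors, and 3.40% of gene starts on autosomes.

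The H3K4me3 differences stayed negative in weeks 1, 2 and 3 under all alternatives. With 50% of the window covered they were -2.52, -4.92 and -3.84 points, with domains above the median score -5.87, -11.5 and -8.53, outside deserts -11.8, -21.6 and -16.4, inside deserts -0.779, -3.99 and -1.54, and within 5 classes of single-copy words -3.00, -4.08 and -4.55. With mostly single-copy words they were -13.9 and -12.9 in weeks 2 and 3, and with isolated windows -16.0 (-15.95) in week 2.

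For H3K27me3 in week 1 the same alternatives gave -2.29, -2.95, -5.09, -0.931 and -1.48, and -4.28 with mostly single-copy words. In week 2 the sign changed to 0.0471 with domains above the median score, 4.96 on autosomes, 19.5 with mostly single-copy words, 1.06 within 5 classes and 17.8 with isolated windows, and the value was -5.64 inside deserts. In week 3 it changed to 0.845 with mostly single-copy words and 1.69 with isolated windows, and was -6.71 at 50% covered, -7.00 above the median score, -5.28 on autosomes, -8.91 outside deserts, -7.17 inside and -1.45 within 5 classes.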

Other observations

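The very last window of a chromosome, shorter than the rest, was listed more often than windows in general. This did not hold for the wider chromosome end, since the last of the 10 parts of the autosomes had 3.54% listed and the first 8.67%. No single-copy share is given for these few last windows. Of the 21 windows shorter than 10 kb, each the last of its chromosome, 9 (42.9%) were in the Uhrf1 list, against 5.14% of all windows. Of the 9627 windows with at least 50% unknown bases, 64 (0.665%) were listed.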
